A study of Arabidopsis thaliana with 24 samples.

Results

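Light is gathered in the chloroplast by chlorophyll-binding antenna proteins and used by photosystem I and photosystem II, and most of the antenna and many photosystem subunits are encoded in the nucleus. The transcripts of 43 such nuclear genes were followed in Arabidopsis thaliana shoots. The genes were chosen by locus identifier, as the rows of the deposited count table that belong to the nuclear LHCB and LHCA antenna families and to the photosystem I (PSA) and photosystem II (PSB) subunits. They comprise 15 LHCB genes, 6 LHCA genes, 12 PSA genes and 10 PSB genes, out of 33602 loci in the table. All 43 passed the filter on low counts that left 20347 genes for testing, and the lowest count of a member in any library was 192.

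The libraries came from shoots of 3-week-old seedlings of the Columbia-0 ecotype, in 4 genotypes: the double mutant cat2shr, the single mutants shr and cat2, and the wild type Col-0. The labels name the mutants without their alleles. CAT2 encodes the main catalase of leaf peroxisomes, which removes the hydrogen peroxide made in photorespiration, and SHR encodes SHORT-ROOT, a transcription factor of ground tissue and bundle sheath patterning. Each genotype was sampled at 24 h of photorespiratory stress and at 0 h, with 3 libraries in each of the 8 groups. The labels give all groups the same growth light level, temperature, sucrose supply and day length, and this day length left a dark period each day. For the stress, agar plates were resealed with Parafilm, which restricts gas exchange, and moved to continuous light. No unstressed group was sampled at 24 h, so sealing, continuous light and the elapsed time cannot be told apart. Which plants went into a library is not stated, and the p-values therefore cover only the spread from library to library.

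In the thylakoid membrane, LHCB1, LHCB2 and LHCB3 form the trimers of the main photosystem II antenna, and LHCB4, LHCB5 and LHCB6 connect these trimers to the core as single proteins. LHCA1 to LHCA4 form the antenna belt of photosystem I, and LHCA5 and LHCA6 link photosystem I to the NDH complex of cyclic electron flow. The nuclear PSA proteins hold the docking sites for ferredoxin and plastocyanin, and the nuclear PSB proteins include the oxygen-evolving extrinsic subunits. These genes are known to depend on light, on the clock and, for many antenna genes, on the GOLDEN2-LIKE (GLK) transcription factors.

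Upstream sequences are shown for 7 LHCB genes, because close relatives within this family had unlike values in the mutants or under stress. The sequences are the 250 bases before the annotated transcript start, from the RefSeq TAIR10.1 genome, written on the strand of the gene. They are LHCB2.1 (AT2G05100, chr2:1824481-1824730, minus strand), LHCB2.2 (AT2G05070, chr2:1800473-1800722, minus strand) and LHCB2.3 (AT3G27690, chr3:10255656-10255905, plus strand). LHCB4.1 (AT5G01530, chr5:208616-208865, plus strand) and LHCB4.3 (AT2G40100, chr2:16745378-16745627, plus strand) encode versions of the same minor antenna protein. LHCB1.4 (AT2G34430, chr2:14524357-14524606, plus strand) and LHCB1.5 (AT2G34420, chr2:14523569-14523818, minus strand) are neighbours that point away from each other. Capitals mark matches, on either strand, to 5 motifs: the G-box CACGTG, the I-box GATAAG, the GLK-type letters CCAATC, the evening element AAATATCT and the CCA1-binding letters AAAAATCT.
LHCB2.1: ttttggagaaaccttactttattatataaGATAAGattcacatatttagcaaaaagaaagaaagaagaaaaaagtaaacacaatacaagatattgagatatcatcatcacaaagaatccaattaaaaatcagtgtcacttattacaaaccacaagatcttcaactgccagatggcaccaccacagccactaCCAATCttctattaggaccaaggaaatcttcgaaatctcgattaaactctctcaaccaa
LHCB2.2: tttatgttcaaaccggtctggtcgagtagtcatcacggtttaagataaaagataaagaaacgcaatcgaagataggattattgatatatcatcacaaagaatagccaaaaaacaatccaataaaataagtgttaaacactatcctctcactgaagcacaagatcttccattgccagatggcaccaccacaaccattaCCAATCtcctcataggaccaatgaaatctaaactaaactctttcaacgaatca
LHCB2.3: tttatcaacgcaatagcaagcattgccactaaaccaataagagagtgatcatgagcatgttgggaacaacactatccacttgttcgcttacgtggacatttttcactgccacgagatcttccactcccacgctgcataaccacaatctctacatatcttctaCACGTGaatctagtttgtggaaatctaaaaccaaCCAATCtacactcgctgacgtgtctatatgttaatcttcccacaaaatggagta
LHCB4.1: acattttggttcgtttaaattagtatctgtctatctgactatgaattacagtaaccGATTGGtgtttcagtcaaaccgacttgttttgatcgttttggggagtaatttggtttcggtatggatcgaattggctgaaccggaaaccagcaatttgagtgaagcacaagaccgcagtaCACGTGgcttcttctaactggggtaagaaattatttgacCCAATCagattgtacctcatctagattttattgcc
LHCB4.3: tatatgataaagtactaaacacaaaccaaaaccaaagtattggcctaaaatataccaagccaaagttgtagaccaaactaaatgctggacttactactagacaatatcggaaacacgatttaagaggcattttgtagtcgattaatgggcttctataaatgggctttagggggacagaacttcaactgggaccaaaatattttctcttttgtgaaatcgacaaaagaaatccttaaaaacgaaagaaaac
LHCB1.4: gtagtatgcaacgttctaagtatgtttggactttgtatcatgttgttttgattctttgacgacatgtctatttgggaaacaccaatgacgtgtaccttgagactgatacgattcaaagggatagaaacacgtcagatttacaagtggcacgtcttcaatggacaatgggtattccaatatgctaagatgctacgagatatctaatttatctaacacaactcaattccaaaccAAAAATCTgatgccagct
LHCB1.5: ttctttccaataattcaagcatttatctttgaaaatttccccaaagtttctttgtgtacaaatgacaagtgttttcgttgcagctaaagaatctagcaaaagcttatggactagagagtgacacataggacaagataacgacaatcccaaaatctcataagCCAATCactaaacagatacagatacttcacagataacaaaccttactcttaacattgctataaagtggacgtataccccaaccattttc

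All 3 LHCB2 windows held the GLK-type letters, at -59 in LHCB2.1, -53 in LHCB2.2 and -54 in LHCB2.3, counted from the transcript start. The LHCB4.1 window held them at 2 places, 1 on each side of a G-box at -74. The LHCB4.2 window held them at -76, with an I-box at -9. The LHCB4.3 window held none of the 5 motifs. Neither did the windows of LHCB1.2, LHCB3 and LHCB5, which were called lower under stress in all 4 genotypes. The LHCB1.5 window held the GLK-type letters at -89, and the LHCB1.4 window held the CCA1-binding letters at -18 only. Among the 43 members, the GLK-type letters were found in 11 windows, of which 7 were LHCB, 3 LHCA, 0 PSA and 1 PSB. Of the windows of 27443 genes, 10.228% held them. The G-box was found in 9 members against 6.486% of all windows, the I-box in 9 members against 12.295%, the CCA1-binding letters in 5 members against 6.687% and the evening element in 1 member against 4.788%. A match is a description of letters and not of a bound site.

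Total counts ranged from 26.43 to 40.11 M per library. The targeted genes went with the labels: CAT2 in cat2 minus Col-0 was -4.99 on the log2 scale at 24 h and -4.42 at 0 h, and SHR in shr minus Col-0 was -3.40 at 24 h and -3.25 at 0 h. Over the 43 members, the libraries standing farthest from the others of their group were cat2 24 h replicate 3, with a median log2 difference of 0.328, Col-0 24 h replicate 3 with 0.319, cat2shr 0 h replicate 3 with -0.302 and cat2 24 h replicate 2 with -0.289. Root hair markers summed to at most 3.23 counts per M counts of a library (CPM). This was in cat2shr 0 h replicate 3, the library at -0.302 over the members, against 0.162 and 0.0362 CPM in replicates 1 and 2. Whether the 2 values are linked was not tested. Floral markers summed to 1.11 to 9.15 CPM and vascular markers to 148 to 355 CPM. All 133 plastid-encoded loci, among them the plastid psa and psb genes, are listed at 0 in every library, so only nuclear members could be described. Of the members, 7 shared 10.6% to 28.2% of their 50-base windows with another member, namely copies within LHCB1 and LHCB2, and the split of reads among those copies is uncertain. Another annotated gene overlaps 17 members, for all but PSAD2 at least in part on the opposite strand, and no source used here gives the strand setting of the counting. The values of these members, among them LHCB1.3, LHCB2.3, LHCB3, LHCB6, LHCA5, PSAH2, PSAN and PSBR, are uncertain to that extent.

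The members made up a smaller part of the messenger RNA at 24 h than at 0 h in each genotype, and a smaller part in each mutant than in Col-0 at both times. They took 3.67% ± 0.366 of all counts in cat2shr at 24 h, against 8.52% ± 0.814 at 0 h (SD, n = 3 each). In shr they took 5.78% ± 0.404 at 24 h, against 10.7% ± 0.435 at 0 h, and in cat2 4.04% ± 0.728 at 24 h, against 11.1% ± 0.271 at 0 h. In Col-0 they took 8.05% ± 0.944 at 24 h, against 15.9% ± 0.171 at 0 h. The order of the genotypes was thus not the same at both times: cat2 stood above cat2shr at 0 h and overlapped it at 24 h, while shr stood above both at 24 h. In whole shoots, fewer photosynthetic cells and less of these RNAs per cell cannot be told apart. A list of other leaf markers summed to 12578 CPM at 24 h against 20059 CPM at 0 h in cat2shr, and to 17494 against 22876 CPM in shr. Its sums were 8318 against 16830 CPM in cat2 and 18676 against 20901 CPM in Col-0, and vascular markers summed to 226 against 242 CPM in cat2shr, 207 against 323 CPM in shr, 159 against 201 CPM in cat2 and 160.1 against 287 CPM in Col-0. Most of the vascular sum was 1 gene, SUC2, and the other vascular genes did not all follow it. In shr SUC2 had 4017, 4765 and 4639 raw counts at 24 h, against 8744, 10223 and 8388 at 0 h. There APL had 585, 615 and 701 against 691, 1005 and 858, whereas IRX1 had 305, 355 and 325 against 276, 303 and 262. The part of either marker list in the result was not tested.

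By class, the photosystem II antenna took 1.43% ± 0.177 of counts in cat2shr at 24 h, against 3.84% ± 0.461 at 0 h. It took 2.43% ± 0.205 in shr at 24 h against 5.0% ± 0.176 at 0 h, 1.67% ± 0.357 in cat2 against 5.05% ± 0.187, and 3.5% ± 0.491 in Col-0 against 7.8% ± 0.179. The LHCA genes took 0.543% ± 0.0441 in cat2shr at 24 h against 1.28% ± 0.146 at 0 h, and 1.26% ± 0.163 in Col-0 against 2.48% ± 0.035. Both antenna classes thus had a far smaller share at 24 h in both genotypes. At 24 h the PSB genes took 1.57% ± 0.101 in shr, 1.03% ± 0.0822 in cat2shr and 0.932% ± 0.127 in cat2, against 1.9% ± 0.152 in Col-0. The PSA genes took 0.967% ± 0.0592 in shr, 0.676% ± 0.0671 in cat2shr and 0.732% ± 0.137 in cat2 at 24 h, against 1.4% ± 0.14 in Col-0. In both classes the cat2 and cat2shr libraries overlapped.

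**Figure D1:**
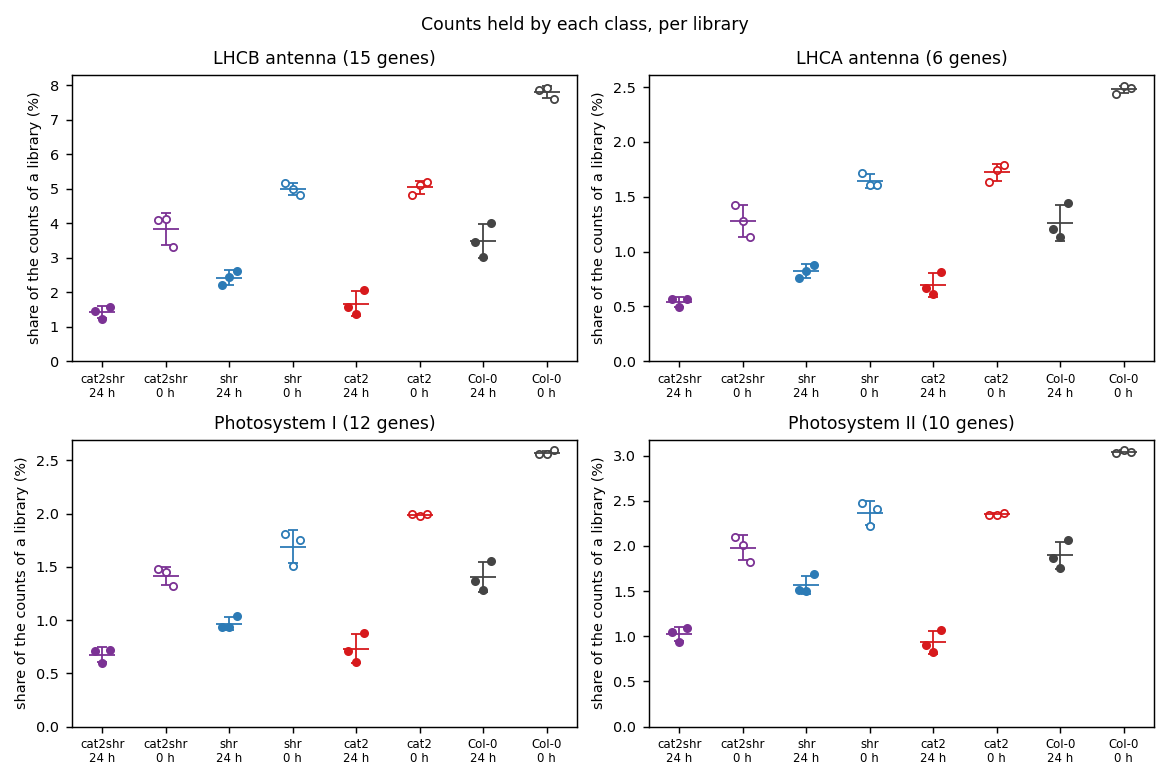
Share of library counts (percent, y axis) taken by the LHCB, LHCA, PSA and PSB genes, 1 panel a class. Filled points are the libraries at 24 h and open points those at 0 h in each genotype, with bars for mean ± SD (n = 3). The 24 h libraries lie below the 0 h libraries in every panel and genotype, and for LHCB the Col-0 mean is 3.50% at 24 h and 7.80% at 0 h.

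The stress response is the difference between 24 h and 0 h within a genotype. Nearly all members fell in every genotype. In cat2shr 40 members were called lower and 1 higher at an adjusted p under 0.05 (edgeR quasi-likelihood test, Benjamini-Hochberg), where 31.7% of all tested genes were called lower and 32.7% higher. In shr 40 were called lower and 0 higher, with 20.9% and 20.4% of all genes. In cat2 41 were lower and 1 higher, with 36.3% and 38.7% of all genes, and in Col-0 40 were lower and 1 higher, with 29.6% and 29.7% of all genes. The share of members called lower is above the background in each genotype, and the share called higher is below it. The fall was at least 2-fold for 21 members in cat2shr, where 11.1% of all genes fell as far, for 17 in shr (5.68%), for 37 in cat2 (17.7%) and for 22 in Col-0 (10.8%).

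Of the 43, 38 were called lower in all 4 genotypes. PSBR fell in every genotype but Col-0, PSBS in every genotype but shr, and PSAN in every genotype but cat2shr, by the call alone. LHCB4.3 and LHCB7 were called lower in none. The classes differed in the size of the fall: the median log2 change of the LHCB genes was -1.29 in cat2shr, -1.27 in shr, -1.43 in cat2 and -1.27 in Col-0. For the LHCA genes it was -1.10, -1.07, -1.23 and -1.03 in the same order. For the PSA genes it was -0.86, -0.91, -1.30 and -0.95, and for the PSB genes -0.72, -0.70, -1.33 and -0.75. Antenna genes thus had the lower medians in cat2shr, shr and Col-0, whereas in cat2 the 4 classes lay close together. The median over all tested genes was between -0.02 and 0.03 in each genotype.

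**Figure D2:**
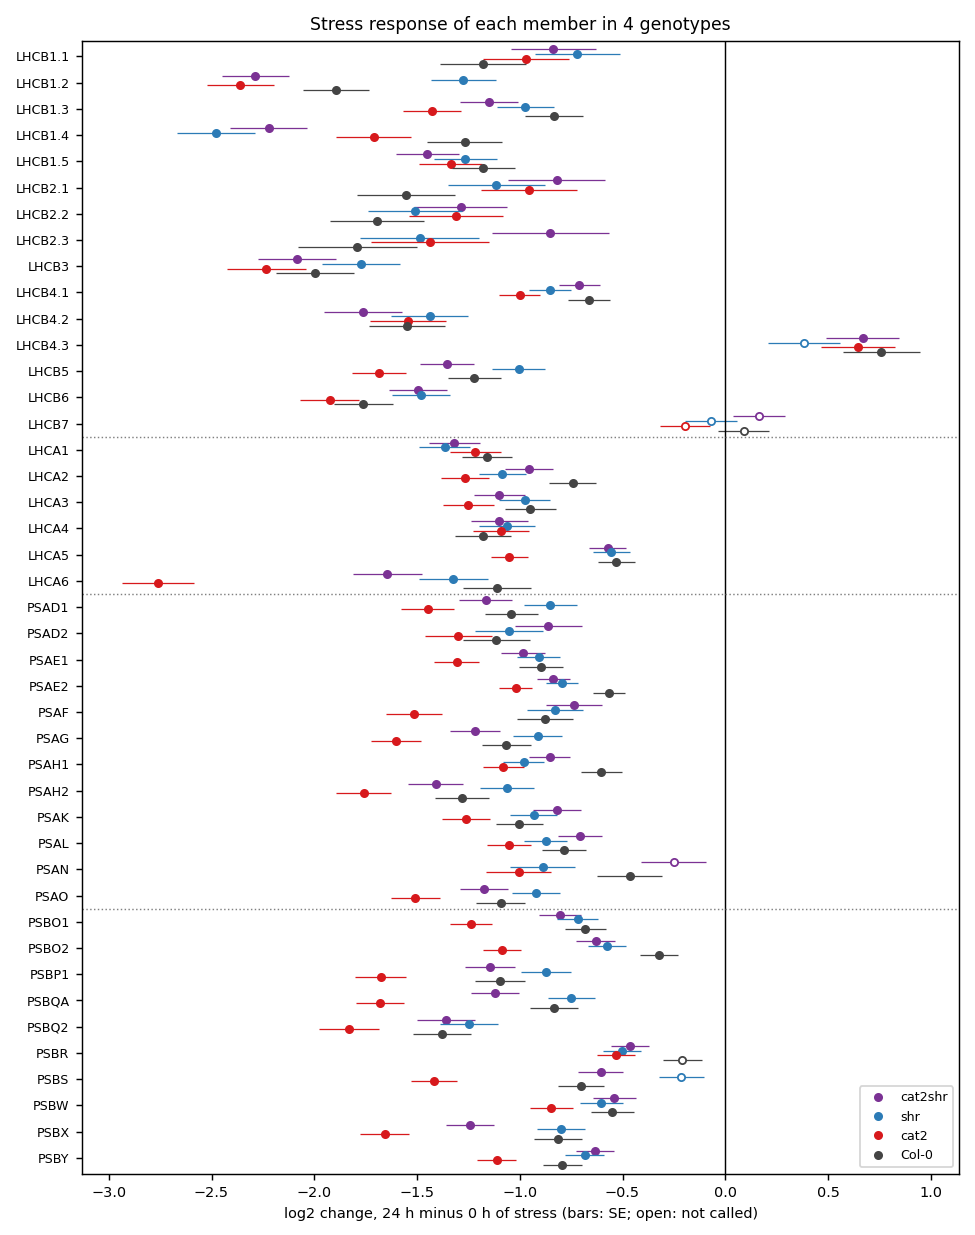
Log2 change at 24 h against 0 h (x axis) of each of the 43 members in cat2shr, shr, cat2 and Col-0, with bars for SE. Filled points passed an adjusted p under 0.05 and open points did not. LHCB4.3 is the member on the positive side in all 4 genotypes, and LHCA6 in cat2 is the farthest to the left at -2.76.

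Within the LHCB1 copies, which encode the most abundant trimer protein, LHCB1.3 (AT1G29930) stood highest per transcript length of all 43 members in every group. It reached 4085 ± 541 CPM per kb in cat2shr at 24 h and 19835 ± 1213 CPM per kb in Col-0 at 0 h (SD, n = 3 each). The 5 lowest per length in every group were LHCB2.3, LHCA5, LHCA6, LHCB4.3 and LHCB7. LHCB1.3 had 5114, 4461 and 6552 CPM at 24 h, against 14646, 14204 and 14461 CPM at 0 h in cat2. The ranges are far apart, and the change was called (log2 change -1.43 ± 0.14, adjusted p = 1.92e-08). In Col-0 the same gene had 13715, 11991 and 15370.3 CPM at 24 h, against 25714, 24698 and 22777 CPM at 0 h, a smaller change (log2 change -0.83 ± 0.14, adjusted p = 3.77e-05) that also separated the groups.

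LHCB1.2 (AT1G29910) fell more than LHCB1.3 in each genotype by its log2 change. It had 812, 715 and 899 CPM at 24 h, against 4330.4, 4345 and 3166 CPM at 0 h in cat2shr (log2 change -2.29 ± 0.16, adjusted p = 1.76e-09). In shr it had 2240.1, 2658 and 2527 CPM at 24 h, against 6241, 6214 and 5509 CPM at 0 h (log2 change -1.27 ± 0.16, adjusted p = 4.42e-06), so its level at 24 h was above that of cat2shr. LHCB1.2 had 772, 614 and 976 CPM at 24 h, against 3772, 4089.9 and 4266 CPM at 0 h in cat2 (log2 change -2.36 ± 0.16, adjusted p = 1.28e-10). In Col-0 it had 2073, 1845 and 2659 CPM at 24 h, against 8100.4, 8173 and 8140.5 CPM at 0 h (log2 change -1.89 ± 0.16, adjusted p = 9.84e-09). The 24 h libraries of cat2shr and cat2 were both below every 24 h library of shr and Col-0.

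LHCB1.4 (AT2G34430) gave another order. It had 272, 197 and 252 CPM at 24 h, against 949, 1352 and 1061 CPM at 0 h in cat2shr (log2 change -2.22 ± 0.19, adjusted p = 8.37e-09). In shr it had 263, 304 and 274 CPM at 24 h, against 1286, 1755 and 1649.6 CPM at 0 h (log2 change -2.48 ± 0.19, adjusted p = 2.94e-08). In both genotypes that carry shr its 24 h libraries lay below every other library of the study. In cat2 it had 678, 568 and 794 CPM at 24 h, against 1825, 2310.4 and 2546 CPM at 0 h (log2 change -1.71 ± 0.18, adjusted p = 5.83e-08), and in Col-0 1682, 1461 and 2329 CPM at 24 h, against 4344, 4309 and 4528 CPM at 0 h (log2 change -1.27 ± 0.18, adjusted p = 6.11e-06). Its head-to-head neighbour LHCB1.5 (AT2G34420) changed by -1.45 ± 0.15 in cat2shr, -1.27 ± 0.15 in shr, -1.34 ± 0.15 in cat2 and -1.18 ± 0.15 in Col-0 on the log2 scale, all called. LHCB1.1 (AT1G29920) had the smallest fall of the 5 copies in cat2shr, shr and cat2, at -0.84, -0.72 and -0.97. In shr its call was lost without shr 0 h replicate 2 and without shr 24 h replicate 1.

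Because LHCB1.1, LHCB1.2 and LHCB1.3 are 95.6% to 96.4% identical over their coding sequence, the 5 copies were also summed. The LHCB1 sum had 9601, 8054 and 10361 CPM at 24 h, against 25519.8, 25596 and 19166 CPM at 0 h in cat2shr, a change of -1.33 ± 0.14 on the log2 scale. The sum changed by -1.09 ± 0.14 in shr, -1.47 ± 0.14 in cat2 and -1.09 ± 0.14 in Col-0. All 4 were called lower, whatever the split of reads among the copies. LHCB1.4 and its nearest copy LHCB1.5 are 91.4% identical.

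LHCB2, the other main trimer protein, whose phosphorylation takes part in state transitions, fell in every genotype. LHCB2.2 (AT2G05070) had 223, 220.3 and 266 CPM at 24 h, against 664, 673 and 395 CPM at 0 h in cat2shr (log2 change -1.29 ± 0.23, adjusted p = 6.24e-05), and 481, 439 and 735 CPM at 24 h, against 1793, 1832 and 1732 CPM at 0 h in Col-0 (log2 change -1.69 ± 0.23, adjusted p = 3.80e-06). LHCB2.1 (AT2G05100) changed by -0.82 ± 0.24, -1.11 ± 0.24, -0.96 ± 0.24 and -1.55 ± 0.24 on the log2 scale in cat2shr, shr, cat2 and Col-0, and LHCB2.3 (AT3G27690) by -0.85 ± 0.28, -1.49 ± 0.29, -1.44 ± 0.29 and -1.79 ± 0.29. All 8 changes were called, but LHCB2.3 in cat2shr overlapped between times and its call was lost without cat2shr 0 h replicate 2 and without cat2shr 24 h replicate 1. The LHCB2 sum changed by -0.97 ± 0.23, -1.27 ± 0.23, -1.14 ± 0.23 and -1.64 ± 0.23, all called, so that Col-0 had the farthest fall by value.

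**Figure D3:**
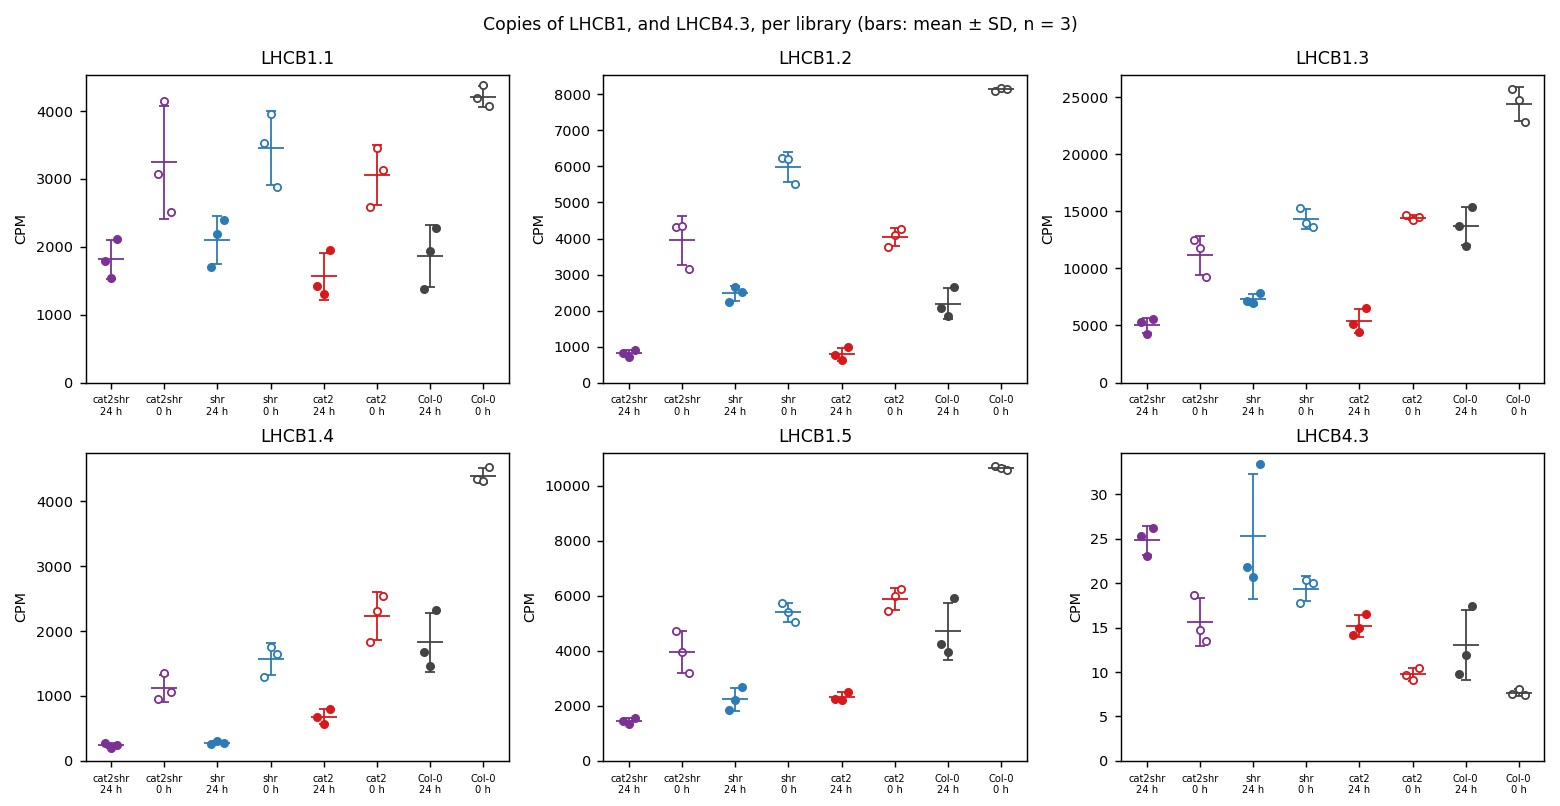
CPM per library (y axis, each panel on its own scale) of LHCB1.1 to LHCB1.5 and LHCB4.3 in cat2shr, shr, cat2 and Col-0 at 24 h and 0 h, with mean ± SD (n = 3). LHCB1.4 is lowest in cat2shr and shr at 24 h, whereas LHCB4.3 is higher at 24 h than at 0 h in each genotype.

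LHCB3 (AT5G54270), a trimer subunit, and LHCB6 (AT1G15820), the minor antenna protein that joins such trimers to the core, were among the members that fell most. LHCB3 had 624, 484 and 650.1 CPM at 24 h, against 2635, 2777 and 2044 CPM at 0 h in cat2shr (log2 change -2.08 ± 0.19, adjusted p = 2.16e-08). In shr it had 932, 1141 and 1235 CPM at 24 h, against 4216, 3560.3 and 3531 CPM at 0 h (log2 change -1.77 ± 0.19, adjusted p = 8.59e-07). In cat2 LHCB3 had 779, 625 and 1076 CPM at 24 h, against 3517, 4255 and 3893 CPM at 0 h (log2 change -2.23 ± 0.19, adjusted p = 2.48e-09), and in Col-0 1511, 1409 and 2123 CPM at 24 h, against 6323, 6932 and 6871 CPM at 0 h (log2 change -2.0 ± 0.19, adjusted p = 3.90e-08). In no genotype did the 2 times overlap, and the fall was over 3-fold in each. LHCB6 changed by -1.50 ± 0.14 in cat2shr, -1.48 ± 0.14 in shr, -1.93 ± 0.14 in cat2 and -1.76 ± 0.14 in Col-0, all called. LHCB5 (AT4G10340), another minor antenna gene, changed by -1.35 ± 0.13, -1.01 ± 0.13, -1.68 ± 0.13 and -1.22 ± 0.13 in the same order, all called.

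The LHCB4 genes for the minor antenna protein CP29 split in direction. LHCB4.3 had 25.3, 23.1 and 26.2 CPM at 24 h, against 18.7, 14.7 and 13.5 CPM at 0 h in cat2shr (log2 change 0.67 ± 0.18, adjusted p = 0.0027). In shr it had 21.8, 20.7 and 33.4 CPM at 24 h, against 17.8, 20.4 and 20 CPM at 0 h (log2 change 0.38 ± 0.18, adjusted p = 0.0867), which did not pass the threshold and did pass it without shr 24 h replicate 2. In cat2 it had 14.2, 14.9 and 16.6 CPM at 24 h, against 9.69, 9.07 and 10.4 CPM at 0 h (log2 change 0.65 ± 0.18, adjusted p = 0.00342), and in Col-0 9.77, 12 and 17.4 CPM at 24 h, against 7.52, 8.13 and 7.44 CPM at 0 h (log2 change 0.76 ± 0.19, adjusted p = 0.0017). The 24 h libraries lay above the 0 h libraries in each genotype. LHCB4.1 changed by -0.71 ± 0.10 in cat2shr, -0.85 ± 0.10 in shr, -1.0 ± 0.10 in cat2 and -0.66 ± 0.10 in Col-0, and LHCB4.2 (AT3G08940) by -1.76 ± 0.19, -1.44 ± 0.19, -1.54 ± 0.19 and -1.55 ± 0.19, all called. LHCB4.3 is 65.7% identical to LHCB4.1 over the coding sequence, and at 5.83 ± 0.285 CPM per kb in Col-0 at 0 h it was the lowest member per length.

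LHCB7 (AT1G76570), a rarely expressed member of the family, was not called under stress in any genotype. It had 15.7, 17.4 and 16.9 CPM at 24 h, against 15.4, 13.5 and 15.7 CPM at 0 h in cat2shr (log2 change 0.16 ± 0.13, adjusted p = 0.261) and 25.1, 25 and 27.7 CPM at 24 h, against 23.1, 23.8 and 26.2 CPM at 0 h in Col-0 (log2 change 0.09 ± 0.12, adjusted p = 0.551). In cat2shr the 24 h libraries lay just above the 0 h libraries, and in Col-0 the times overlapped. The changes in shr and cat2 were -0.07 ± 0.13 and -0.20 ± 0.12. In cat2 it was called lower without cat2 0 h replicate 1.

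Around photosystem I, the 6 LHCA genes all fell in all 4 genotypes. LHCA1 (AT3G54890), a belt protein, had 1087, 995 and 1035 CPM at 24 h, against 3132, 2471 and 2168 CPM at 0 h in cat2shr (log2 change -1.32 ± 0.12, adjusted p = 2.99e-08), and 2594, 2443 and 3359 CPM at 24 h, against 6299, 6179.7 and 6277 CPM at 0 h in Col-0 (log2 change -1.16 ± 0.12, adjusted p = 1.62e-07). It changed by -1.36 ± 0.12 in shr and -1.22 ± 0.12 in cat2. LHCA4 (AT3G47470), which carries the far-red chlorophylls of the belt, changed by -1.10 ± 0.14, -1.06 ± 0.14, -1.09 ± 0.14 and -1.18 ± 0.14 in cat2shr, shr, cat2 and Col-0. No difference between stress responses was called for either gene. LHCA2 (AT3G61470) changed by -0.95 ± 0.12, -1.09 ± 0.12, -1.27 ± 0.12 and -0.74 ± 0.11, with Col-0 nearest to 0.

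The NDH linkers behaved less alike. LHCA6 (AT1G19150) had 32.3, 27.7 and 34.7 CPM at 24 h, against 112, 97.6 and 87.4 CPM at 0 h in cat2shr (log2 change -1.65 ± 0.17, adjusted p = 1.03e-07). In shr it had 36.8, 52.4 and 52.5 CPM at 24 h, against 122, 117 and 115 CPM at 0 h (log2 change -1.32 ± 0.17, adjusted p = 6.05e-06). In cat2 LHCA6 had 18.4, 13 and 23.7 CPM at 24 h, against 124, 130.2 and 119 CPM at 0 h (log2 change -2.76 ± 0.18, adjusted p = 6.54e-11), the largest fall of any member in any genotype. In Col-0 it had 62.6, 56.8 and 77.5 CPM at 24 h, against 145, 136 and 144 CPM at 0 h (log2 change -1.11 ± 0.16, adjusted p = 1.12e-05). The cat2 libraries at 24 h lie below every other library for this gene. LHCA5 (AT1G45474) changed by -0.57 ± 0.09 in cat2shr, -0.55 ± 0.09 in shr, -1.05 ± 0.09 in cat2 and -0.53 ± 0.09 in Col-0, all called, and fell least of the LHCA genes in each genotype.

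Among the photosystem I subunits, PSAH2 (AT1G52230), which forms the docking site of mobile antenna, had the lowest log2 change of the PSA genes in each genotype, in shr next to PSAD2. It had 327, 259.6 and 394 CPM at 24 h, against 1055, 1137 and 1129 CPM at 0 h in cat2 (log2 change -1.76 ± 0.14, adjusted p = 5.44e-10), and 579, 576 and 747 CPM at 24 h, against 1459, 1551 and 1614 CPM at 0 h in Col-0 (log2 change -1.28 ± 0.13, adjusted p = 1.27e-07). It changed by -1.41 ± 0.13 in cat2shr and -1.06 ± 0.13 in shr. Its close relative PSAH1 (AT3G16140) changed less, by -0.85 ± 0.10, -0.98 ± 0.10, -1.08 ± 0.10 and -0.60 ± 0.10 in cat2shr, shr, cat2 and Col-0, all called. PSAG (AT1G55670), which holds the antenna belt to the core, changed by -1.22 ± 0.12, -0.91 ± 0.12, -1.60 ± 0.12 and -1.07 ± 0.12 in the same order.

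PSAF (AT1G31330) and PSAN (AT5G64040) form the plastocyanin side of photosystem I. PSAF had 1050.3, 831 and 983 CPM at 24 h, against 1648, 1679.9 and 1447 CPM at 0 h in cat2shr (log2 change -0.74 ± 0.13, adjusted p = 8.42e-05), and 940.1, 777 and 1121 CPM at 24 h, against 2823, 2699 and 2592 CPM at 0 h in cat2 (log2 change -1.52 ± 0.14, adjusted p = 5.31e-09). It changed by -0.83 ± 0.14 in shr and -0.88 ± 0.14 in Col-0. PSAN had 506, 414 and 470.5 CPM at 24 h, against 545, 638 and 473 CPM at 0 h in cat2shr, which was not called (log2 change -0.25 ± 0.16, adjusted p = 0.17). The 2 times overlapped there, unlike in the other genotypes. PSAN changed by -0.89 ± 0.16 in shr, -1.01 ± 0.16 in cat2 and -0.47 ± 0.16 in Col-0, all called, and the Col-0 call was lost in 4 of 6 fits that left out 1 library. PSAE2 (AT2G20260), a subunit of the ferredoxin side, changed by -0.84 ± 0.08, -0.80 ± 0.08, -1.02 ± 0.08 and -0.57 ± 0.08. The other 6 PSA genes fell in all 4 genotypes, with log2 changes between -1.51 and -0.71.

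Of the photosystem II subunits, the extrinsic proteins of the oxygen-evolving complex fell in every genotype. PSBQ2 (AT4G05180) had 675, 549 and 818 CPM at 24 h, against 2413, 2487 and 2368 CPM at 0 h in cat2 (log2 change -1.83 ± 0.14, adjusted p = 7.49e-10), and 1343, 1278 and 1579 CPM at 24 h, against 3505, 3647 and 3762 CPM at 0 h in Col-0 (log2 change -1.38 ± 0.14, adjusted p = 1.11e-07). It changed by -1.36 ± 0.14 in cat2shr and -1.25 ± 0.14 in shr. Its paralog PSBQA (AT4G21280) changed by -1.12 ± 0.12, -0.75 ± 0.12, -1.68 ± 0.12 and -0.84 ± 0.12 in cat2shr, shr, cat2 and Col-0, all called. PSBO2 (AT3G50820), the less abundant copy of the manganese-stabilising protein, had 754, 696 and 762 CPM at 24 h, against 1283, 1179 and 964 CPM at 0 h in cat2shr (log2 change -0.63 ± 0.09, adjusted p = 7.44e-06). In cat2 it had 519, 499.7 and 526 CPM at 24 h, against 1068, 1139.6 and 1071 CPM at 0 h (log2 change -1.09 ± 0.09, adjusted p = 2.83e-09). In Col-0 it had 1042, 1064 and 1280.4 CPM at 24 h, against 1469, 1401 and 1365 CPM at 0 h (log2 change -0.32 ± 0.09, adjusted p = 0.00551). The Col-0 change is small, and its call was lost without Col-0 0 h replicate 1, 24 h replicate 1 or 24 h replicate 2.

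PSBS (AT1G44575), the sensor of lumen acidity that switches on energy-dependent quenching, had 749, 725 and 851 CPM at 24 h, against 1269.6, 1195 and 1076 CPM at 0 h in cat2shr (log2 change -0.61 ± 0.11, adjusted p = 8.42e-05). In shr it had 1142, 1275 and 1439.5 CPM at 24 h, against 1508, 1599 and 1365 CPM at 0 h, where the 2 times overlapped and no change was called (log2 change -0.21 ± 0.11, adjusted p = 0.129). In cat2 it had 368, 331 and 429 CPM at 24 h, against 955, 1062 and 999 CPM at 0 h (log2 change -1.42 ± 0.11, adjusted p = 8.81e-10), and in Col-0 705, 787 and 916 CPM at 24 h, against 1314, 1325 and 1281 CPM at 0 h (log2 change -0.70 ± 0.11, adjusted p = 2.00e-05). In shr the level at 24 h was thus the highest of the 24 h groups, and in cat2 the lowest. PSBR (AT1G79040), which helps to attach the extrinsic proteins, changed least in Col-0 (log2 change -0.21 ± 0.09, adjusted p = 0.0601, not called), and by -0.46 ± 0.09 in cat2shr, -0.50 ± 0.09 in shr and -0.53 ± 0.09 in cat2, all called. PSBX (AT2G06520), a small membrane subunit, changed by -1.24 ± 0.12, -0.80 ± 0.12, -1.66 ± 0.12 and -0.82 ± 0.12.

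Within a library, LHCB counts were lower relative to PSB counts at 24 h than at 0 h in every genotype. The summed LHCB counts were 1.39 ± 0.0635 times the summed PSB counts in cat2shr at 24 h, against 1.94 ± 0.116 times at 0 h (SD, n = 3 each). In shr the ratio was 1.55 ± 0.0879 at 24 h against 2.11 ± 0.122 at 0 h, in cat2 1.78 ± 0.135 against 2.15 ± 0.0739, and in Col-0 1.84 ± 0.112 against 2.56 ± 0.0527. The libraries of the 2 times did not overlap in any genotype, and every mutant lay below Col-0 at 0 h. The ratio of summed PSA to summed PSB counts was 0.658 ± 0.019 in cat2shr at 24 h against 0.715 ± 0.0109 at 0 h, and 0.617 ± 0.00228 in shr against 0.712 ± 0.0279. It was 0.782 ± 0.0415 in cat2 at 24 h against 0.846 ± 0.00429 at 0 h, and 0.739 ± 0.0144 in Col-0 against 0.844 ± 0.00969. This ratio was lower in the genotypes that carry shr than in cat2 and Col-0 at each time. The ratio of summed LHCA to summed PSA counts went another way in cat2, where it was 0.957 ± 0.0433 at 24 h against 0.866 ± 0.041 at 0 h, higher without overlap. It was lower at 24 h in the others, at 0.804 ± 0.0167 against 0.902 ± 0.0547 in cat2shr, 0.848 ± 0.0392 against 0.976 ± 0.0758 in shr and 0.896 ± 0.0262 against 0.964 ± 0.0149 in Col-0. With 3 libraries against 3 a 2-sided exact permutation test of such a ratio cannot go below 0.1, so no test is given.

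Before the stress, cat2 already had fewer of these transcripts than Col-0, and at 24 h more of them were at least 2-fold lower. In cat2 minus Col-0, 37 members were called lower at 24 h and 0 higher, where 32.7% of all genes were called lower and 31.4% higher. At 0 h 38 were called lower and 0 higher, where 11.8% and 11.5% of all genes were called, and between 26 and 33 were lower when 1 library was left out. At least 2-fold lower were 20 members at 24 h (8.34% of all genes) and 2 at 0 h (1.41%). At 24 h all 6 LHCA, 12 PSA and 10 PSB genes were called lower but only 9 of 15 LHCB genes. LHCB1.1, the 3 LHCB2 genes, LHCB4.3 and LHCB7 were the 6 not called, and LHCB2.1 was -0.09 ± 0.23.

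The members farthest below Col-0 differed between the times. LHCA6 was 18.4 ± 5.32 CPM in cat2 and 65.6 ± 10.6 CPM in Col-0 at 24 h (log2 change -1.83 ± 0.17, adjusted p = 2.59e-08). At 0 h it was 125 ± 5.42 CPM in cat2 and 142 ± 5.24 CPM in Col-0 (log2 change -0.18 ± 0.16, adjusted p = 0.435), which was not called. LHCB1.2 was -1.48 at 24 h and -1.01 at 0 h, LHCB1.4 -1.42 and -0.98, and LHCB4.2 -1.03 and -1.04, all called. The extrinsic subunit PSBQA was -1.27 at 24 h and -0.42 at 0 h, and PSBX -1.31 and -0.47. At 0 h the calls of LHCB2.1, LHCB2.2 and PSAN were lost in 6 of 6 fits that left out 1 library. Those of LHCB2.3, PSBQA and PSBS were lost in 5 of 6. The calls of PSAF, PSAH1, PSAH2, PSAD1, PSAD2 and PSBO2 were lost in 1 to 4 such fits. The unlike values of LHCB2 and LHCB1 at 24 h remain when copies are summed, at -0.21 ± 0.23 for LHCB2, not called, and -1.18 ± 0.14 for LHCB1, called.

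In shr, too, most members were lower than in Col-0, with the antenna copies again unlike each other. In shr minus Col-0, 34 members were called lower and 2 higher at 24 h, where 26.9% and 25.8% of all genes were called. Those lower calls numbered 24 without Col-0 24 h replicate 3 and 36 without shr 24 h replicate 3. At 0 h 36 were lower and 1 higher, where 24.1% and 21.3% of all genes were called. At least 2-fold lower were 8 members at 24 h (5.89% of all genes) and 6 at 0 h (4.09%). LHCB1.4 was 263, 304 and 274 CPM in shr against 1682, 1461 and 2329 CPM in Col-0 at 24 h (log2 change -2.70 ± 0.19, adjusted p = 1.28e-09), and -1.49 at 0 h. LHCB1.2 was 0.17 ± 0.16 at 24 h, not called, and -0.44 ± 0.16 at 0 h, a call that was lost in 6 of 6 fits that left out 1 library.

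PSAN, at the plastocyanin side, was 389, 321 and 333 CPM in shr against 1061, 1195 and 1563 CPM in Col-0 at 24 h (log2 change -1.87 ± 0.16, adjusted p = 1.77e-08). At 0 h it was 738, 484 and 710.5 CPM in shr against 1845, 1609 and 1822 CPM in Col-0 (log2 change -1.45 ± 0.16, adjusted p = 1.00e-06), again with no overlap. LHCB2.3 was -1.29 at 24 h and -1.60 at 0 h, PSAF -1.03 and -1.08, and PSAD2 (AT1G03130), the copy of the ferredoxin-docking subunit, -1.07 and -1.13, all called. The higher members were LHCB4.3, at 0.96 ± 0.18 (adjusted p = 1.79e-04) at 24 h and 1.33 ± 0.18 (adjusted p = 1.42e-05) at 0 h, and PSBS, at 0.68 ± 0.11 (adjusted p = 4.02e-05) at 24 h. LHCB7 was lower, at -0.88 and -0.72, so the 2 scarce LHCB genes moved in opposite directions in shr. The cat2 and shr comparisons use the same Col-0 libraries, and those of cat2shr use the same cat2 and shr libraries again.

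In the double mutant many members were lower than in cat2 at 0 h, while calls went in both directions at 24 h. In cat2shr minus cat2, 14 were called lower and 8 higher at 24 h, where 28.1% and 27% of all genes were called. At 0 h 24 were lower and 1 higher, where 17.8% and 17.2% of all genes were called. The 24 h count of lower calls was 7 without cat2 24 h replicate 3, 8 without cat2shr 24 h replicate 2 and 9 without cat2shr 24 h replicate 1 or replicate 3. The 0 h count was 15 without cat2shr 0 h replicate 3. At 24 h 7 LHCB genes were lower and 1 higher, 2 LHCA genes were lower and 2 higher, 4 PSA genes were lower and 0 higher, and 1 PSB gene was lower and 5 higher. The share of members called lower at 24 h is near the background and the share called higher is below it.

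The lower members at 24 h were led by LHCB1.4, with 272, 197 and 252 CPM in cat2shr against 678, 568 and 794 CPM in cat2 (log2 change -1.50 ± 0.18, adjusted p = 1.06e-06). LHCB2.2 was -0.92 ± 0.22, LHCA1 -0.66 ± 0.12 and LHCB4.2 -0.65 ± 0.18, all called. Among the higher members, PSBS had 749, 725 and 851 CPM in cat2shr against 368, 331 and 429 CPM in cat2 (log2 change 1.04 ± 0.11, adjusted p = 2.03e-07), without overlap. LHCA6 had 32.3, 27.7 and 34.7 CPM in cat2shr against 18.4, 13 and 23.7 CPM in cat2 (log2 change 0.78 ± 0.17, adjusted p = 6.82e-04), also without overlap. PSBO2 was 0.52 ± 0.09, LHCB4.3 0.71 ± 0.18, LHCA5 0.44 ± 0.09 and PSBY (AT1G67740), a small subunit, 0.33 ± 0.09. PSBQA at 0.32 ± 0.12 and PSBO1 (AT5G66570), the main manganese-stabilising protein, at 0.25 ± 0.10 were called too, and each call was lost when 1 or another library was left out.

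Set against shr, most members stood a little lower in the double mutant at 0 h, and few passed the test. In cat2shr minus shr, 4 were called lower and 0 higher at 0 h, where 1.59% and 1.44% of all genes were called. All 3 cat2shr libraries lay below all 3 shr libraries for 31 of the 43 members, and above for 0, where 8.76% of all tested genes lay below and 10.2% above. The median log2 difference of the members was -0.33, against 0.00 for all genes. The called members were LHCB4.2 at -0.79 ± 0.18, LHCB6 at -0.61 ± 0.14, LHCB1.2 at -0.60 ± 0.16 and LHCA1 at -0.46 ± 0.12. The count was 0 without any 1 of shr 0 h replicate 1, shr 0 h replicate 2, cat2shr 0 h replicate 2 or cat2shr 0 h replicate 3, and 9 without cat2shr 0 h replicate 1. At 24 h 25 were called lower and 1 higher, where 27.9% and 27.3% of all genes were called. LHCB1.2 had 812, 715 and 899 CPM in cat2shr against 2240.1, 2658 and 2527 CPM in shr at 24 h (log2 change -1.61 ± 0.16, adjusted p = 1.67e-07), the largest gap of this comparison. LHCB4.2 was -1.12 ± 0.18, LHCB3 -0.91 ± 0.18 and PSBS -0.73 ± 0.11, all called. The higher member was PSAN at 0.42 ± 0.16, and its call was lost without shr 24 h replicate 2 or 3 and without cat2shr 24 h replicate 1 or 3.

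Whether the stress response itself differed between genotypes was tested as a difference of changes. In cat2 minus Col-0, 17 members had a lower response in cat2 and 0 a higher one, where 19.4% and 18.8% of all genes were called. They were 2 of 15 LHCB, 3 of 6 LHCA, 6 of 12 PSA and 6 of 10 PSB genes. The largest difference was that of LHCA6, at -1.65 ± 0.23 (adjusted p = 2.14e-05), followed by PSBQA at -0.85 ± 0.16, PSBX at -0.84 ± 0.17, PSBO2 at -0.76 ± 0.13, PSBS at -0.72 ± 0.16 and PSAF at -0.64 ± 0.19. The count was 29 without Col-0 24 h replicate 2 and 12 without cat2 24 h replicate 2. The calls of LHCB1.3, LHCB5, PSAE1, PSAG and PSAH2 were each lost when 1 or another of the 24 h libraries was left out. The share of the 43 members is above the background for lower responses. The LHCB share, 2 of 15 genes, is near it and rests on calls that were lost in this way, so it does not set the LHCB genes apart.

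In cat2shr minus cat2, 11 members had a higher response, which here means a smaller fall, in cat2shr and 0 a lower one, where 15.6% and 15.4% of all genes were called. They were 0 LHCB, 2 LHCA, 3 PSA and 6 PSB genes. LHCA6 was at 1.11 ± 0.23 (adjusted p = 0.00146), PSBS at 0.81 ± 0.16, PSAF at 0.78 ± 0.19 and PSAN at 0.75 ± 0.22. PSBQA, PSBP1 (AT1G06680), LHCA5, PSBY, PSBO2, PSAK (AT1G30380) and PSBO1 were between 0.43 and 0.56. A smaller fall is not a higher level at 24 h. PSAN itself was lower in cat2shr than in cat2, at -0.41 at 24 h and -1.16 at 0 h. The 24 h call of PSAN was lost when 1 or another library was left out. PSAF was lower in cat2shr at 0 h without overlap, and the 2 genotypes overlapped at 24 h. The count of higher responses was 20 without cat2 24 h replicate 3 and 8 without cat2 24 h replicate 2. The calls of PSAK, PSBO1 and PSBP1 were lost when 1 or another library was left out. Both of these comparisons use the cat2 libraries, so their values for LHCA6, PSBS, PSAF, PSBQA and PSBO2 are given side by side and are not independent.

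**Figure D4:**
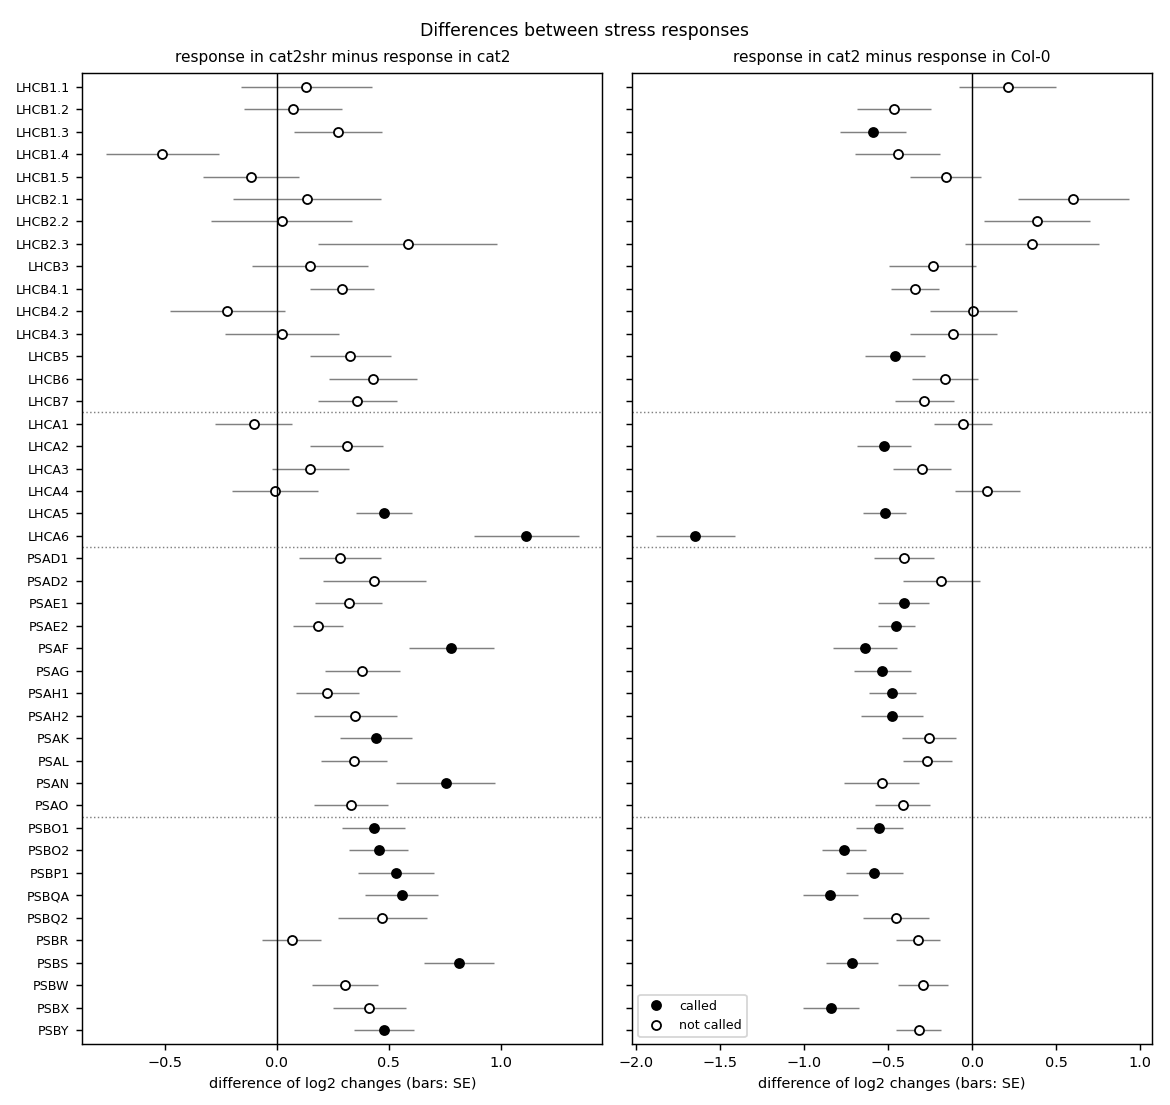
Difference between stress responses (log2, x axis) for each member, with bars for SE, in cat2shr minus cat2 in the left panel and in cat2 minus Col-0 in the right panel. Filled points passed an adjusted p under 0.05. LHCA6 lies farthest from 0 in both panels, at 1.11 and -1.65, and no LHCB gene is filled in the left panel.

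In shr minus Col-0, only 1 member had a lower response and 2 a higher one, where 13.1% and 12.6% of all genes were called, so these shares are below the background. LHCB1.4 had the lower response, at -1.21 ± 0.25 (adjusted p = 0.00197). LHCB1.2 had a higher response, at 0.62 ± 0.22, that was lost in 11 of 12 fits that left out 1 library. PSBS had a higher response, at 0.49 ± 0.16, that was lost in 9 of 12 such fits. The LHCB1 sum had a difference of -0.0014 ± 0.20 between the responses of shr and Col-0, which was not called.

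**Figure D5:**
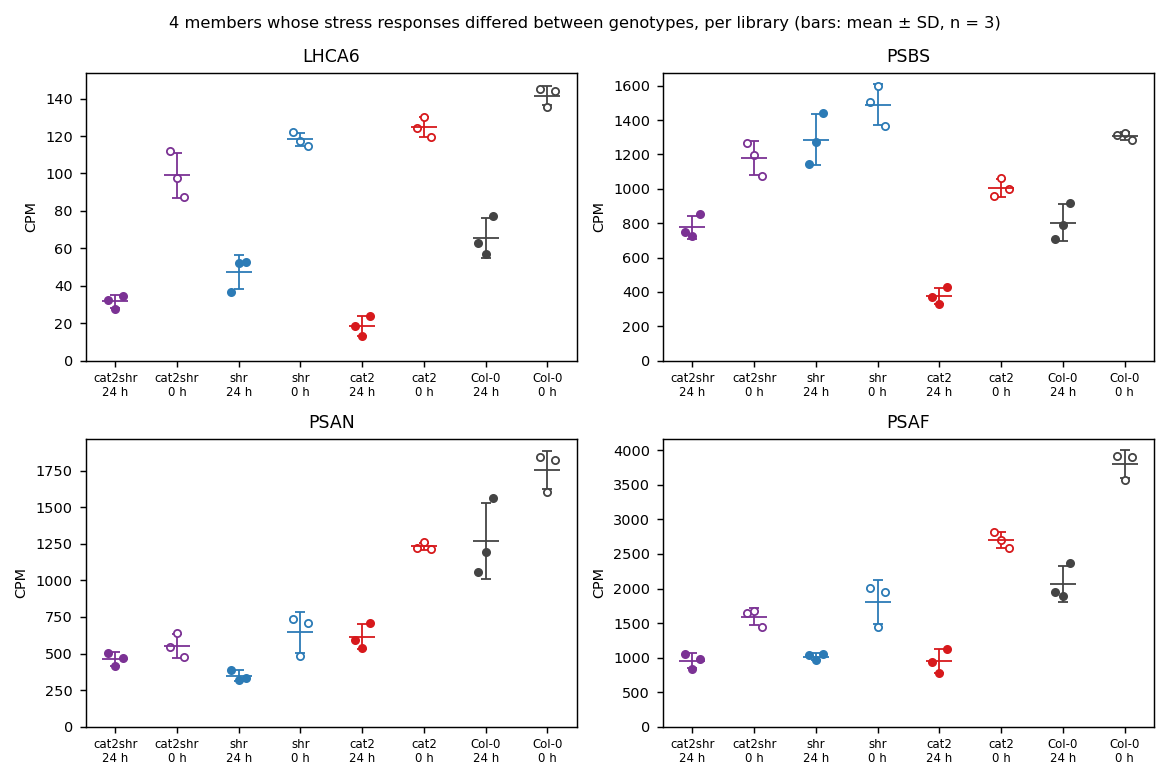
CPM per library (y axis) of LHCA6, PSBS, PSAN and PSAF in cat2shr, shr, cat2 and Col-0 at 24 h and 0 h, with mean ± SD (n = 3). The cat2 libraries at 24 h are the lowest for LHCA6 and PSBS, and PSAN is low at both times in cat2shr and shr.

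Other genes of photosynthesis and its control were counted from lists of their own. Their counts under stress stand against lower and higher calls of 31.7% and 32.7% of all genes in cat2shr, 20.9% and 20.4% in shr, 36.3% and 38.7% in cat2, and 29.6% and 29.7% in Col-0. Of 13 electron transport and ATP synthase genes, 9 fell and 1 rose in cat2shr under stress, 8 fell and 0 rose in shr, 10 fell and 0 rose in cat2, and 7 fell and 2 rose in Col-0. FNR2, a ferredoxin-NADP reductase, changed by -1.46 in cat2shr and -2.16 in cat2, and PETE1, a plastocyanin, by -1.18 in shr and -1.26 in Col-0. Of 9 genes for antenna targeting and photosystem assembly, 7 fell in cat2shr, 5 in shr, 9 in cat2 and 6 in Col-0, and 0 rose. LTD, which hands antenna proteins to the chloroplast signal recognition particle, changed by -1.34 in cat2shr, -2.33 in cat2 and -0.91 in Col-0. In all 4 genotypes both lists had a share of lower calls above that of all genes and a share of higher calls below it.

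The antenna-like and regulatory lists were mixed, and the counts of the regulators in cat2shr and Col-0 are near the shares over all genes given above. Of 8 LHC-like genes, 4 fell and 2 rose in cat2shr, 4 fell and 2 rose in shr, 5 fell and 3 rose in cat2, and 3 fell and 4 rose in Col-0. ELIP1, an early light-induced protein that binds pigments under strong light, rose by 1.45 in shr and 3.63 in Col-0 on the log2 scale. Its Col-0 value rests on only 4, 9 and 3 counts at 0 h. At 24 h ELIP1 had 115, 155 and 113 counts in shr against 44, 67 and 72 in Col-0. LIL3:1, which holds chlorophyll synthesis enzymes at the membrane, changed by -0.90 in cat2shr and -1.89 in cat2. Of 4 genes for state transitions, 3 fell and 1 rose in cat2shr, 3 fell in shr and in cat2, and 1 fell in Col-0. STN8, a kinase of photosystem II core proteins, changed by -0.53 in cat2shr, -0.52 in shr, -1.27 in cat2 and -0.22 in Col-0, all called. Of 17 regulators, 6 fell and 5 rose in cat2shr, 2 fell and 4 rose in shr, 7 fell and 4 rose in cat2, and 6 fell and 4 rose in Col-0. SIG2, a sigma factor of the plastid RNA polymerase, changed by -0.91 in cat2shr and -1.42 in cat2, and HY5, a light-signalling transcription factor, by 0.95 in shr and 1.31 in Col-0.

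The same lists were also compared between cat2shr and cat2. At 24 h 8 of 13 electron transport genes and 8 of 9 targeting and assembly genes were higher in cat2shr, and 0 were lower in either list, where 27% of all genes were higher and 28.1% lower. ATPD, a subunit of the ATP synthase, was 0.70, and PSB28, a photosystem II assembly factor, was 1.11. Of the 17 regulators 6 were lower, near that share of all genes, and 3 higher, below it. The lower ones lay between LHY, a clock transcription factor, at -1.80 and HY5 at -0.32, and the higher ones included SIG6 at 0.96 and SIG2 at 0.53. At 0 h LHY varied within groups, with 50, 408 and 199 counts in shr and 79, 156 and 351 in Col-0. The part of this spread in the member values was not tested. The stress response was higher in cat2shr than in cat2 for 9 electron transport genes and 7 targeting and assembly genes, and lower for 1 and 0, where 15.6% of all genes had a higher response and 15.4% a lower one. In cat2 minus Col-0 it was lower for 8 electron transport genes and 7 targeting and assembly genes, where 19.4% of all genes had a lower response, with LTD at -1.42 and SIG6 at -1.34.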

How the data were processed

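RNA was sequenced from 24 shoot libraries, 3 for each of 4 genotypes at 24 h and at 0 h, and the labels' titles gave the groups. The authors deposited raw whole-number counts of 33602 loci. The submitters' processing notes name Trim Galore 0.3.3, TopHat2 2.1.0, featureCounts of Subread 1.4.6 and build TAIR10, and per the labels' protocols the TruSeq kit was stranded. No source used here gives parameters or the strand setting.

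Genes were kept by filterByExpr and fitted with glmQLFit (robust, TMM, 1 mean per group over all 24 libraries) in edgeR 4.0.16, R 4.3.3. The common dispersion was 0.0195. Adjusted p is Benjamini-Hochberg over 20347 genes within each of 15 comparisons. SE is the absolute log2 change over the root of F. After ± stands the SE for a log2 change and the SD of 3 libraries for a level. CPM used TMM-scaled library sizes, and shares used raw totals. The fit was tested on simulated counts. Loci matched RefSeq TAIR10.1 by locus tag (43 of 43, of which 27 have the same symbol), which gave lengths, overlaps, copy identity and upstream sequence (Biopython 1.88).

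Members were named where they had the smallest adjusted p of their class in a stress response or a difference of responses. Those with the highest or lowest log2 change of their class in a stress response were named too. So were LHCB4.3, LHCB7, LHCA5, LHCA6, PSBS and the LHCB1 and LHCB2 copies. Per-library values were given for some of these members and only log2 changes for the others. Of the other lists, only genes with the 2 smallest adjusted p-values of a comparison were named, some also with their values in other genotypes. LHCB4.1, LHCB4.2, LHCB5, PSAD2, PSAE1, PSAK, PSBO1, PSBP1, PSBY and, of the regulators, LHY and, in cat2shr minus cat2, HY5 were named after their values were seen. The members and lists were chosen with earlier results of these data known. The alternatives were other scaling (RLE or library size only), DESeq2 1.42.0, other filters (none, or 5 CPM in 3 libraries), the replicate number as a block, the compared groups fitted alone, summed copies and libraries left out.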

Additional observations from a re-analysis of the deposited data

Results flagged for a closer look

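The results below are those whose stress response differed between genotypes by a test of the difference itself (edgeR quasi-likelihood test, adjusted p under 0.05 over all tested genes). Values are differences of log2 changes.

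In cat2 minus Col-0 all 17 were negative, so the fall was larger in cat2. Of the antenna they were LHCA6 at -1.65, LHCB1.3 at -0.59, LHCA2 at -0.53, LHCA5 at -0.52 and LHCB5 at -0.46. Of the photosystem I subunits they were PSAF at -0.64, PSAG at -0.54, PSAH1 at -0.48, PSAH2 at -0.48, PSAE2 at -0.45 and PSAE1 at -0.41. Of the photosystem II subunits they were PSBQA at -0.85, PSBX at -0.84, PSBO2 at -0.76, PSBS at -0.72, PSBP1 at -0.58 and PSBO1 at -0.55.

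In cat2shr minus cat2 all 11 were positive, so the fall was smaller in cat2shr. They were LHCA6 at 1.11, PSBS at 0.81, PSAF at 0.78, PSAN at 0.75, PSBQA at 0.56, PSBP1 at 0.53, LHCA5 at 0.48, PSBY at 0.48, PSBO2 at 0.45, PSAK at 0.44 and PSBO1 at 0.43. Both sets of differences contain the cat2 libraries.

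In shr minus Col-0, LHCB1.4 differed by -1.21, PSBS by 0.49 and LHCB1.2 by 0.62.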

How the results depend on the processing

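Single values were followed for members called in the fit used above and for named members in the comparisons they were named for. Uncalled values of other members were left out, so a call gained by them shows only in the counts of members called. Of the 439 values followed, 437 kept their direction and their side of the threshold under RLE scaling and 437 under DESeq2. The number was 436 under the filter of 5 CPM, 421 with no filter, 416 in a fit to the compared groups only and 409 with library size only. With 1 library left out 2634 of 2886 values did so. Counts of members called that moved by more than 1.5 times are given next, and the cause was not tested. For cat2shr minus shr at 0 h, the 4 lower calls became 12 with DESeq2, 8 under the 5 CPM filter, 2 with no filter and 0 with only the compared groups. The 14 lower calls of cat2shr minus cat2 at 24 h became 8 with no filter, and the 17 lower responses of cat2 minus Col-0 became 29 with library size only. Higher calls became 1 for the stress response in shr and 1 for cat2 minus Col-0 at 0 h with library size only. For cat2shr minus shr at 24 h the 1 higher call became 0 with library size only or no filter and 2 with only the compared groups, where cat2 minus Col-0 at 0 h had 1 higher call and shr minus Col-0 at 0 h had 2. For the response of shr minus Col-0, the 1 lower call became 2 with DESeq2 or only the compared groups and 0 with summed copies, and the 2 higher calls became 1 with no filter, with summed copies and without the first libraries of shr and cat2shr at 0 h.

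No comparison had a correlation over 0.1 in all 3 same-numbered pairs, so the numbers were not read as pairs. Some had it in 2 of 3, such as cat2shr minus cat2 at 0 h, with 0.147, 0.0409 and 0.347 for replicates 1, 2 and 3. With the replicate block, 438 of the 439 values followed were the same. The 4 lower calls of cat2shr minus shr at 0 h then became 7 and the 1 lower response of shr minus Col-0 became 2.

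Leaving out 1 library gave 12 to 29 lower responses in cat2 minus Col-0, 8 to 20 higher ones in cat2shr minus cat2, and 1 to 3 lower and 0 to 2 higher ones in shr minus Col-0. For cat2shr minus cat2 it gave 7 to 14 lower calls at 24 h and 15 to 24 at 0 h. For cat2shr minus shr it gave 0 to 1 higher calls at 24 h and 0 to 9 lower ones at 0 h. Higher calls were 0 to 1 for the stress response in shr and 0 to 1 for cat2 minus Col-0 at 24 h.

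Values near 0 changed sign. With library size only, LHCB7 in the stress response of shr was 0.030, LHCA5 in the response of shr minus Col-0 was 0.035 and LHCB4.3 in that of cat2shr minus cat2 was -0.0037. With 1 library left out, the response difference of LHCB4.3 lay between -0.36 and 0.039 in cat2 minus Col-0 and between -0.050 and 0.21 in cat2shr minus cat2, that of LHCA5 between -0.11 and 0.056 in shr minus Col-0, and the change of LHCB7 between -0.15 and 0.076 in shr. Library size only moved the median log2 of all genes by more than 0.1 in 6 comparisons. It was -0.132 against 0.0006 with TMM in the stress response of cat2shr, -0.077 against 0.027 in that of cat2, 0.115 against -0.030 in cat2 minus Col-0 at 0 h, 0.135 against -0.0015 in shr minus Col-0 at 24 h, -0.208 against -0.023 in cat2shr minus shr at 24 h and -0.175 against -0.026 in the response of cat2 minus Col-0. The share of higher among all called genes was then 39.99% against 50.78% in the stress response of cat2shr, 83.06% against 49.55% in cat2 minus Col-0 at 0 h, 64.39% against 49.00% in shr minus Col-0 at 24 h, 30.73% against 49.38% in cat2shr minus shr at 24 h and 32.30% against 49.16% in the response of cat2 minus Col-0. It was also 65.20% against 49.41% in the stress response of shr, 60.59% against 46.89% in shr minus Col-0 at 0 h and 70.72% against 47.56% in cat2shr minus shr at 0 h. With no filter it was 38.71% in the response of cat2 minus Col-0.

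LHCB4.3 and LHCB7 have the lowest counts, down to 192 for LHCB4.3 in Col-0 at 0 h, where counting error adds to the spread between libraries.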
